A study of Homo sapiens with 2 samples.

Results

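CA12 and a small group of cellular pH regulators were followed in BT549, a human line of triple-negative, mesenchymal breast cancer cells. The 9 genes listed were the carbonic anhydrases CA12, CA9, CA2 and CA13, the bicarbonate transporters SLC4A2 and SLC4A7, the lactate carriers SLC16A1 and SLC16A3, and their chaperone BSG. They were found by symbol in a count table of 19029 genes, and 7 of the 9 were analysed. CA2 and CA13 were not analysed here. The compared cells were BT549 overexpressing SNHG15, a long non-coding RNA that hosts a small nucleolar RNA, and BT549 carrying a control vector named pcIP2 in the labels. Both were labelled as breast cancer cells and were grown in DMEM with fetal bovine serum, penicillin and streptomycin at the same CO2. Each group held 1 library. Whether the cells were a clone or a pool was not given in the sources used here. Differences between the libraries therefore have no replicate check. CA12 was chosen by its high ratio of counts in this same comparison, and the others for their known link to pH, so all values are a description with no test.

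Proliferating tumour cells release protons and lactate, and membrane carbonic anhydrases, bicarbonate transporters and monocarboxylate carriers together help to set the pH of the cytosol. Carbonic anhydrases interconvert carbon dioxide and water with bicarbonate and a proton. CA12 and CA9 do this on the outer face of the plasma membrane. CA9 is a widely used marker of hypoxia, and CA12 is known in breast cancer as a gene of oestrogen receptor positive tumours. SLC4A7 (NBCn1) brings bicarbonate into the cell with sodium, SLC4A2 (AE2) exchanges bicarbonate for chloride, SLC16A1 (MCT1) and SLC16A3 (MCT4) carry lactate together with a proton, and BSG (basigin) escorts both of these carriers to the membrane.

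The SNHG15 library held 16570496 counts and the vector library 20799017. SNHG15 itself stood at 34450 counts in the library labelled as overexpressing it and at 466 in the vector library, in the direction of the labels. Of 6 mesenchymal markers, all analysed, vimentin (VIM) was at 1998 CPM (the count scaled to library depth with TMM factors) and 1993 CPM. Of the other 5, CDH2 (20.9 against 3.95 CPM) and SPARC (909.9 against 511.3 CPM) were higher in the SNHG15 library, FN1 (645.3 against 1163 CPM) and ZEB1 (3.19 against 5.41 CPM) were lower and ZEB2 (5.91 against 4.11 CPM) was neither, by the 1.5-fold rule given below. Of 6 epithelial markers 3 were analysed, with a summed level of 0.985 CPM with SNHG15 overexpressed and 2.60 CPM with the vector. These were CDH1, at 12 and 11 counts, CLDN4, at 3 and 1, and CLDN7, at 2 and 40. CLDN7 overlaps ELP5 on the opposite strand, at 1260 and 2112 counts, and its counts are uncertain. Of 6 haematopoietic markers only CD14 was analysed, at 7.71 CPM and 17.4 CPM, and of 4 endothelial markers only KDR, at 1 count in each library. The part of these markers in the results was not tested, and the oestrogen and progesterone receptor genes ESR1 and PGR were not analysed here. In bulk RNA a smaller share of cells expressing a gene and less of its RNA per cell cannot be told apart.

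Of the 7 genes analysed, 3 were higher in the SNHG15 library (CA12, SLC16A1 and CA9), 0 were lower and 4 were neither. The call needed a ratio of 1.5-fold whose exact 95% interval, covering counting error only, excluded 1. Over the 12934 genes that reached 1 CPM on average, 13.3% were higher and 12.2% were lower by this rule. Since these genes were chosen with the comparison known, nothing is read from their count. All 7 passed the minimum of 1 CPM. CA12 alone of the 7 had its whole interval beyond 2-fold, as 2.2% of all genes compared did on the higher side and 2.45% on the lower side.

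**Figure D1:**
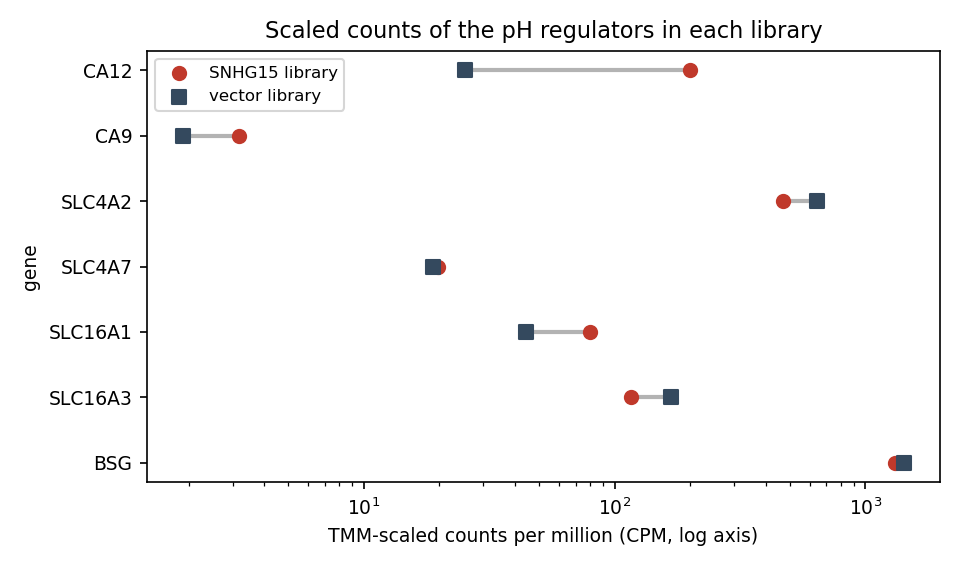
TMM-scaled CPM (log axis) of each of the 7 genes in the SNHG15 library (circles) and the vector library (squares), 1 library per group and so without error bars. CA12 has the widest gap, from 25.3 to 199.8 CPM, and BSG is the most abundant in both libraries, at 1309 and 1423 CPM.

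CA12 (ENSG00000074410) lies on the minus strand of chromosome 15 at chr15:63321378-63382161 (hg38). It had 3447 counts with SNHG15 overexpressed and 506 with the vector, or 199.8 CPM against 25.3 CPM. The SNHG15 library was the high one, by 7.89-fold (95% interval 7.18 to 8.67). The authors' deposited table gives a log2 ratio of 3.10 for CA12. Of the 12934 genes compared, 39 had a higher ratio than CA12. Among the 2482 genes whose mean CPM lay within 2-fold of that of CA12, 1 did. The transcripts of CA12 have a GC content of 50.5%, near the 49.9% of the median gene. With the trend of ratios over GC content removed, its ratio was 7.75. No other gene of the table overlaps CA12. Counts were given per gene, so the isoforms of CA12, of which GENCODE 29 lists 6 transcripts, are not separated.

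The start of CA9 is shown because CA9 is the textbook target of the hypoxia-inducible factors through a site at its start. Windows of 250 bases before RefSeq transcript starts (GRCh38.p14) were searched on either strand for ACGTG, the core of the hypoxia response element. The RefSeq starts lie inside the genes as the files give them, 72 bases in for CA9 and 315 bases in for CA12. The window of CA12 (chr15:63381847-63382096, minus strand) is thus wholly within the gene and is not upstream of it, while that of CA9 (chr9:35673678-35673927, plus strand) has 178 bases before the gene and 72 within it. The last 30 bases of the CA9 window, chr9:35673898-35673927, hold its match, in capitals and as read from 5′ to 3′.
CA9: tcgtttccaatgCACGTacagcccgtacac
The CA9 window holds 1 match, which ends 13 bases before the RefSeq start, and the CA12 window holds 0. Of 35116 such windows of 250 bases over all genes, 18.5% hold ACGTG on either strand. Neither window holds the full oestrogen response element (GGTCA, any 3 bases, then its reverse complement TGACC), which is present in 14 of the 35116. A match is a description of the letters, and its absence says nothing about a factor. Windows were found for 6 of the 7 genes and were 15 in number, as some genes have several starts, and 5 of the 15 hold ACGTG: 2 of 4 for SLC4A2, 1 of 5 for SLC16A3, 1 of 2 for BSG and the one of CA9. The 2 windows of SLC4A2 with matches (chr7:151062297-151062546 and chr7:151062392-151062641) overlap and share sites, so they are not separate. SLC16A1 had no window.

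CA9 (ENSG00000107159), on the plus strand of chromosome 9 at chr9:35673856-35681159, had 55 counts with SNHG15 overexpressed and 38 with the vector, or 3.19 CPM against 1.90 CPM. Its ratio was 1.68 (1.09 to 2.60), so that the interval ran from little difference to more than 2-fold. CA9 overlaps ARHGEF39 on the opposite strand, a gene with 496 and 537 counts. Strand handling was not given in the sources used here. Hence the few counts of CA9 are uncertain, as are counts of the other overlapping genes named below. Per length, CA12 was 14.3 times the level of CA9 with SNHG15 overexpressed and 3.04 times with the vector, in CPM per kilobase of merged exons.

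**Figure D2:**
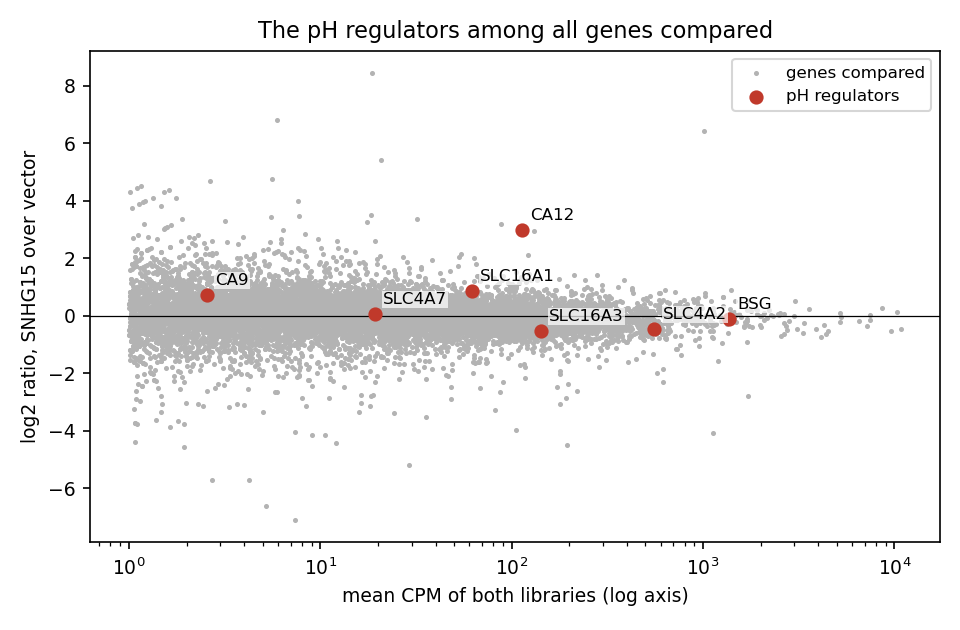
Log2 of SNHG15 over vector library (prior count of 2) against the mean CPM of both libraries (log axis) for the 12934 genes compared (grey) and the 7 pH regulators (red). CA12, at 2.97, stands at the upper edge of genes of its abundance, and the other 6 lie within the band of grey points, between −0.53 and 0.84.

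The widest set of carbonic anhydrases listed had 15 genes, of which 6 were in the table and 5 reached 1 CPM. Of these 5, CA12, CA11 and CA9 (60%) were higher, 0 were lower and 2 were neither, beside 13.3% and 12.2% of all genes compared. The median log2 ratio of 0.71, against 0.02 over all genes compared, is the value of CA9. CA12 was chosen for its ratio, so nothing is read from this count or median. Outside the members, CA11 was higher, and CA4 and CA5B were neither. CA11, a carbonic anhydrase-related protein without catalytic activity, had 924 counts against 529 and was 2.02-fold higher (1.82 to 2.25). CA4, a membrane-anchored carbonic anhydrase, was at 75 counts against 58, a ratio of 1.497 (1.05 to 2.15), just under the rule. By library totals, and with the deeper library thinned, 4 carbonic anhydrases were higher. The mitochondrial CA5B was at 45 against 77, a ratio of 0.677 (0.458 to 0.990), and counted as lower with DESeq2 size factors. It overlaps the pseudogene CA5BP1 on the same strand, at 254 and 331 counts, and its counts are uncertain. CA6, the secreted salivary enzyme, had 7 and 3 counts and was not compared.

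CA12 made up 42.9% of the summed FPKM of the 6 carbonic anhydrases with SNHG15 overexpressed and 15.5% with the vector, in the values deposited by the authors. By CPM per kilobase of merged exons the shares were 47.7% and 18.2%. In the vector library CA11 was the most abundant of the 6 per length, with 12.8 CPM per kilobase against 3.46 for CA12. In the SNHG15 library their order depended on the length used. CA12 was 1.06 times CA11 by merged exons and 0.855 times by the deposited FPKM, so these neighbours in the order cannot be ranked. The FPKM divide by the summed length of all distinct exons for most genes, as described under the other observations.

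**Figure D3:**
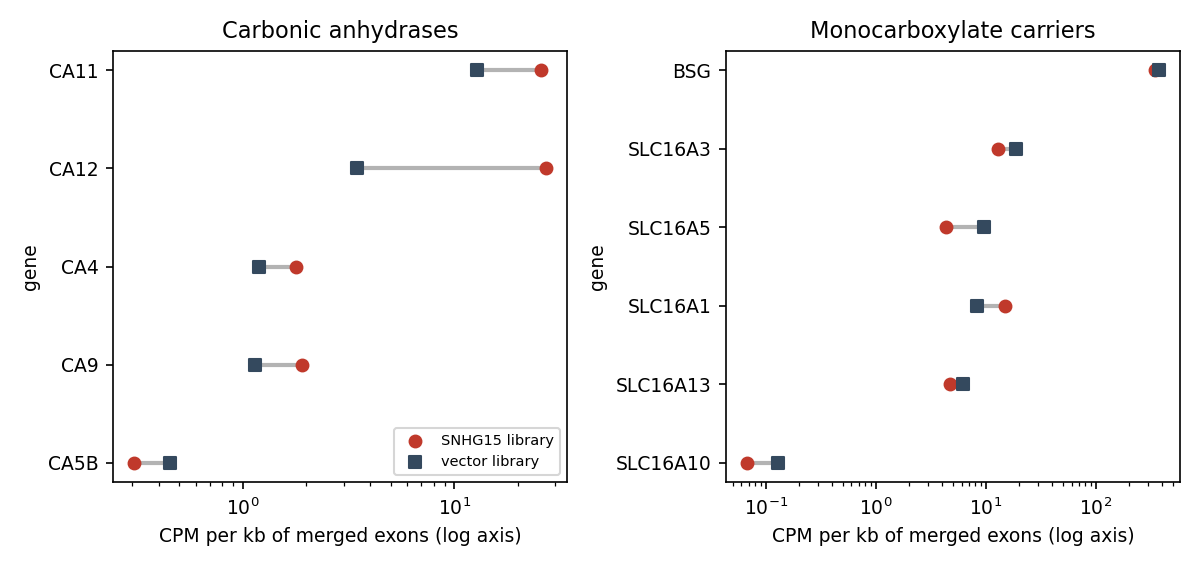
CPM per kilobase of merged exons (log axis) of the carbonic anhydrases (left) and the monocarboxylate carriers with BSG (right, 1 carrier not drawn) that reached a mean of 1 CPM, in the SNHG15 library (circles) and the vector library (squares), ordered by the vector library and without error bars (1 library per group). CA12 goes from 3.46 to 27.3, beside CA11, and SLC16A1 goes from below SLC16A3 to just above it.

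Of the bicarbonate transporters, SLC4A2 (ENSG00000164889, chr7:151057210-151076527, plus strand) was abundant in both libraries. It had 8091 counts with SNHG15 overexpressed and 12863 with the vector, or 468.9 CPM against 644.0 CPM. The vector library was the higher one, and the ratio of 0.728 (0.708 to 0.749) fell short of 1.5-fold. Its transcripts have a GC content of 63.0%, and with the GC trend removed the ratio was 0.898. SLC4A2 overlaps CDK5 on the opposite strand, at 808 and 1206 counts. SLC4A7 (ENSG00000033867, chr3:27372721-27484420, minus strand) was at 340 and 378 counts, or 19.7 CPM against 18.9 CPM. The libraries were alike within counting error, with a ratio of 1.04 (0.897 to 1.21) that was 0.904 with the GC trend removed. No other gene of the table overlaps SLC4A7. Per length, SLC4A2 was 30.1 times the level of SLC4A7 with SNHG15 overexpressed and 43.1 times with the vector.

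Among the wider set of bicarbonate and anion exchangers, 8 genes were compared, of which 1 was higher, 2 were lower and 5 were neither. These shares were 12.5% higher and 25% lower, beside 13.3% and 12.2% of all genes compared. The median log2 ratio was −0.11, and 0.01 when scaled by library totals. SLC4A8, a sodium-driven chloride bicarbonate exchanger, had 137 counts against 56 and was 2.83-fold higher (2.06 to 3.94), with its whole interval beyond 2-fold. It overlaps GALNT6 on the opposite strand, which had 848 counts against 460. SLC4A3, the anion exchanger AE3, was at 241 counts against 563 and was 2.02-fold lower (1.73 to 2.36). SLC4A11, a transporter best known from the corneal endothelium, was 1.76-fold lower (1.58 to 1.96), at 526 counts against 1072.

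The lactate carriers differed in direction. SLC16A1 (ENSG00000155380, chr1:112911847-112957013, minus strand) had 1376 counts with SNHG15 overexpressed and 886 with the vector, or 79.7 CPM against 44.4 CPM. It was 1.80-fold higher in the SNHG15 library (1.65 to 1.96), and 1.63-fold with the GC trend removed. SLC16A3 (ENSG00000141526, chr17:82228397-82261129, plus strand) had 2003 counts against 3353, or 116.1 CPM against 167.9 CPM. Here the vector library was the higher one, by 1.45-fold (1.37 to 1.53), short of the rule. The transcripts of SLC16A3 have a GC content of 65.6%, and with the GC trend removed its ratio was 0.888. SLC16A1 overlaps SLC16A1-AS1 on the opposite strand, with 65 and 84 counts. SLC16A3 overlaps CSNK1D on the opposite strand, at 2669 and 2776 counts.

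Per length, SLC16A1 stood at 0.447 times SLC16A3 in the vector library and at 1.16 times in the SNHG15 library, by merged exons. By the deposited FPKM the same quotients were 0.502 and 1.31. By the length of the longest transcript SLC16A1 remained below SLC16A3 in the SNHG15 library too, at 18.2 against 24.0 CPM per kilobase. The pair came closer in level on all of these scales, and its order in the SNHG15 library was not settled.

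BSG (ENSG00000172270, chr19:571277-583493, plus strand) had 22580 counts with SNHG15 overexpressed and 28429 with the vector, or 1309 CPM against 1423 CPM. The difference was small, with a ratio of 0.919 (0.904 to 0.936), and its direction depended on the processing. The ratio was 0.997 by library totals and 1.11 with the GC trend removed, for transcripts with a GC content of 61.9%. BSG overlaps AC009005.1 on the opposite strand, at 719 and 603 counts. Per length, BSG was 23.0 times the level of SLC16A1 with SNHG15 overexpressed and 44.9 times with the vector. It was 26.7 and 20.1 times the level of SLC16A3.

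By CPM per kilobase of merged exons the order in the vector library was BSG (375), SLC4A2 (84.8), SLC16A3 (18.7), SLC16A1 (8.35), CA12 (3.46), SLC4A7 (1.97) and CA9 (1.14). In the SNHG15 library it was BSG (345), SLC4A2 (61.8), CA12 (27.3), SLC16A1 (15.0), SLC16A3 (12.9), SLC4A7 (2.05) and CA9 (1.91). CA12 thus went from the fifth place to the third. SLC4A7 and CA9 lay close together at the low end of the SNHG15 library.

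Other monocarboxylate carriers were compared in the same way. With SLC16A1, SLC16A3 and BSG, 7 genes of the set were compared, of which SLC16A1 was higher, SLC16A5 was lower and 5 were neither. These shares were 14.3% each, beside 13.3% and 12.2% of all genes compared. The median log2 ratio was −0.37, against 0.02 over all genes compared, and −0.08 with the GC trend removed. SLC16A5 had 229 counts against 597 and was 2.25-fold lower (1.93 to 2.63). EMB, embigin, another chaperone of these carriers, had 24 counts against 2, a ratio of 13.9 (3.45 to 121), at a mean under 1 CPM. Also under 1 CPM were SLC16A9 (6 counts against 0) and SLC16A14 (11 against 2), on the higher side. SLC16A11 (1 against 6) and SLC16A6 (15 against 22), under 1 CPM too, were on the lower side. With no minimum CPM, 4 genes of the set were higher and 1 was lower.

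Among 12 genes of lactate and pyruvate handling, 2 (16.7%) were higher, 0 were lower and 10 were neither. Of all genes compared 13.3% were higher and 12.2% were lower. The median log2 ratio was 0.29, against 0.02 over all genes compared. LDHB, the lactate dehydrogenase subunit of aerobic tissues, was 1.60-fold higher (1.54 to 1.66), at 396.5 CPM against 248.3 CPM. MPC2, a subunit of the mitochondrial pyruvate carrier, was 1.66-fold higher (1.51 to 1.83), at 1028 counts against 715. It overlaps DCAF6 on the opposite strand, which had 325 counts against 186. With the GC trend removed the log2 ratio of LDHB was 0.51, under 1.5-fold, and that of MPC2 was 0.62. LDHA, the lactate-producing subunit, was at 1064 CPM against 816.9 CPM, a ratio of 1.30 (1.27 to 1.33) under the rule. PDK4, a kinase that turns off pyruvate dehydrogenase, had 4 counts against 33 and a mean under 1 CPM, with a ratio of 0.140 (0.0361 to 0.395).

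Sodium-proton exchangers and their partners numbered 10 compared genes, of which 2 (20%) were higher, 0 were lower and 8 were neither. Of all genes compared 13.3% were higher and 12.2% were lower. With DESeq2 size factors 1 of the 10 was higher and 0 were lower, against 1521 and 1750 over all genes. The median log2 ratio was 0.23, against 0.02 over all genes compared. Ezrin, EZR, which links membrane proteins such as these exchangers to actin, was 1.63-fold higher (1.57 to 1.70), at 313.2 CPM against 191.9 CPM.

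Of 20 compared subunits of the V-ATPase, the proton pump of lysosomes and other acidic compartments, 2 were higher, 1 was lower and 17 were neither. These shares were 10% higher and 5% lower, beside 13.3% and 12.2% of all genes compared. The median log2 ratio was 0.11, and −0.06 with a minimum of 5 CPM. ATP6V1F, the most abundant subunit by the deposited FPKM, was 1.51-fold lower (1.45 to 1.56), at 256.5 CPM against 386.3 CPM, and was no longer lower by library totals. ATP6V1D was 1.62-fold higher (1.41 to 1.88), at 456 counts against 325. It overlaps EIF2S1 (692 and 623 counts) and MPP5 (124 and 115 counts) on the opposite strand, and its counts are uncertain. With the GC trend removed the log2 ratios were −0.47 for ATP6V1F and 0.53 for ATP6V1D, both under 1.5-fold, and 0.96 for ATP6V1G2. ATP6V1G2 was at 61 counts against 36, a ratio of 1.96 (1.28 to 3.05), but it shares its locus with the readthrough gene ATP6V1G2-DDX39B, at 641 counts against 0, and its counts are uncertain.

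Proton channels, proton sensors and proton-coupled carriers numbered 10 compared genes, with 1 higher, 1 lower and 8 neither. These shares were 10% each, beside 13.3% and 12.2% of all genes compared. The median log2 ratio was −0.04, and 0.08 by library totals. PACC1, an acid-activated chloride channel, was 2.15-fold higher (1.76 to 2.63), at 282 counts against 152. GPR4, a receptor that senses extracellular acid, had 2 counts against 30 at a mean under 1 CPM, a ratio of 0.0772 (0.00894 to 0.304), and overlaps OPA3 on the same strand. CLCN7, the lysosomal chloride-proton exchanger and the most abundant of the set by CPM, was at 268.1 CPM against 263.2 CPM, a ratio of 1.02 (0.979 to 1.06).

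Over these 7 sets together, without repeats, 72 genes were compared. Of these, 12 (16.7%) were higher and 5 (6.94%) were lower, beside the 13.3% and 12.2% of all genes compared, and the median log2 ratio was 0.08 against 0.02. By library totals, which shifted the median of all genes up by 0.12 on the log2 scale, the split was 17 higher and 4 lower, against 2380 and 1151 over all genes (1725 and 1574 with TMM). With DESeq2 size factors it was 11 higher and 7 lower, against 1521 and 1750. Beyond 2-fold were CA12 and SLC4A8 on the higher side and 1 gene on the lower side.

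**Figure D4:**
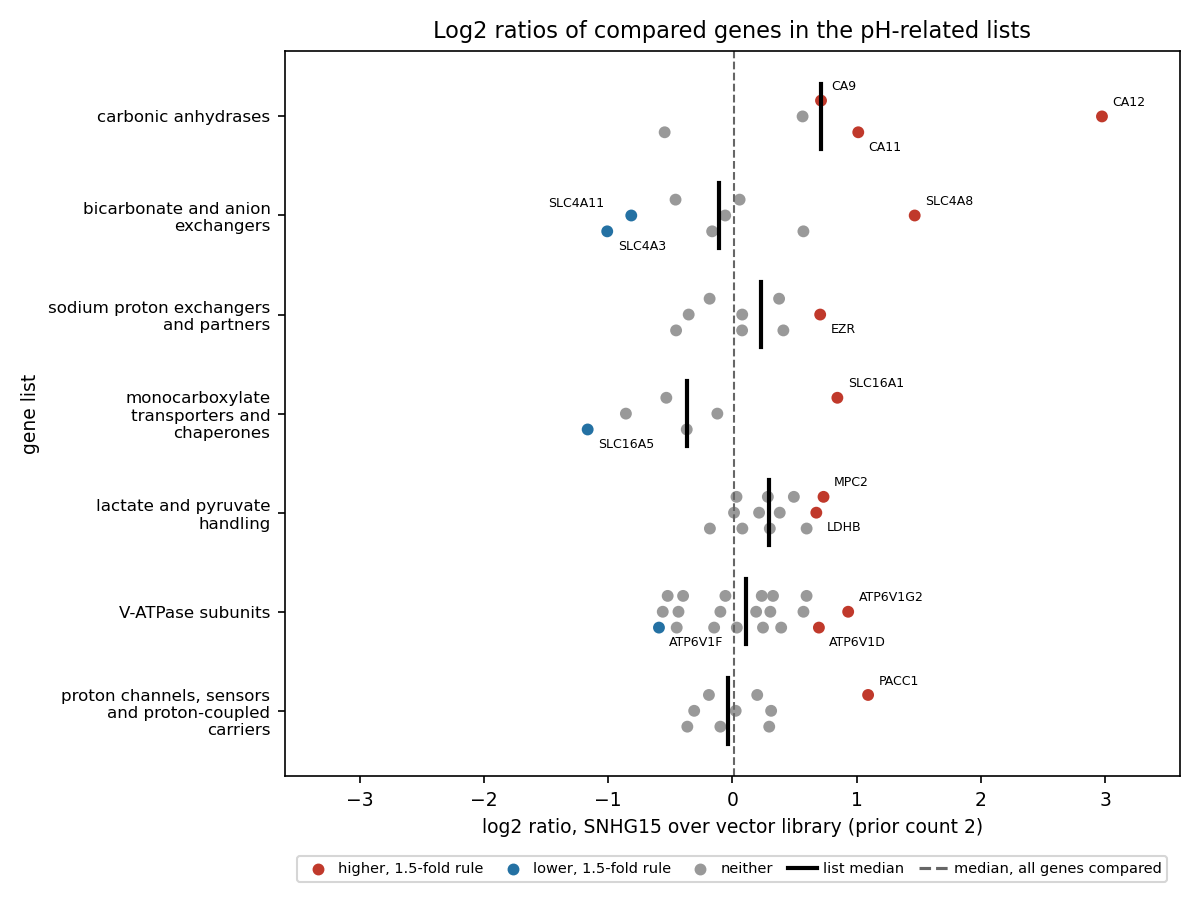
Log2 of SNHG15 over vector library (prior count of 2) for the compared genes of each pH-related set except a few not reported here, with genes higher (red), lower (blue) or neither (grey) by the 1.5-fold rule, the set median (black bar) and the median of all genes compared (dashed line, 0.02). CA12 lies farthest to the right, at 2.97, while set medians lie between −0.37 and 0.71.

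The genes around CA12 did not share its ratio. Of the 5 nearest compared genes on each side, 2 were higher by the 1.5-fold rule, 0 were lower and 8 were neither, with ratios from 0.809 to 1.62 and a median log2 ratio of 0.27. The nearest on the low-coordinate side were APH1B, a gamma-secretase subunit, at 127 counts against 121 (ratio 1.22, 0.940 to 1.57), and RAB8B, a membrane traffic GTPase, at 46 counts against 33 (ratio 1.61, 1.01 to 2.61). On the other side were the deubiquitinase USP3, at 242 counts against 173 (ratio 1.62, 1.33 to 1.98), and HERC1, at 168 counts against 153 (ratio 1.27, 1.02 to 1.59). The midpoint of APH1B lies 89.6 kb and that of USP3 167.4 kb from the start of CA12. With the GC trend removed the log2 ratios of RAB8B and USP3 were 0.44 and 0.52, both under 1.5-fold. Over the 407 compared genes of chromosome 15 the median log2 ratio was 0.18, with 68 higher, 32 lower and 307 neither. Of all genes compared 13.3% were higher and 12.2% were lower, with a median log2 ratio of 0.02.

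**Figure D5:**
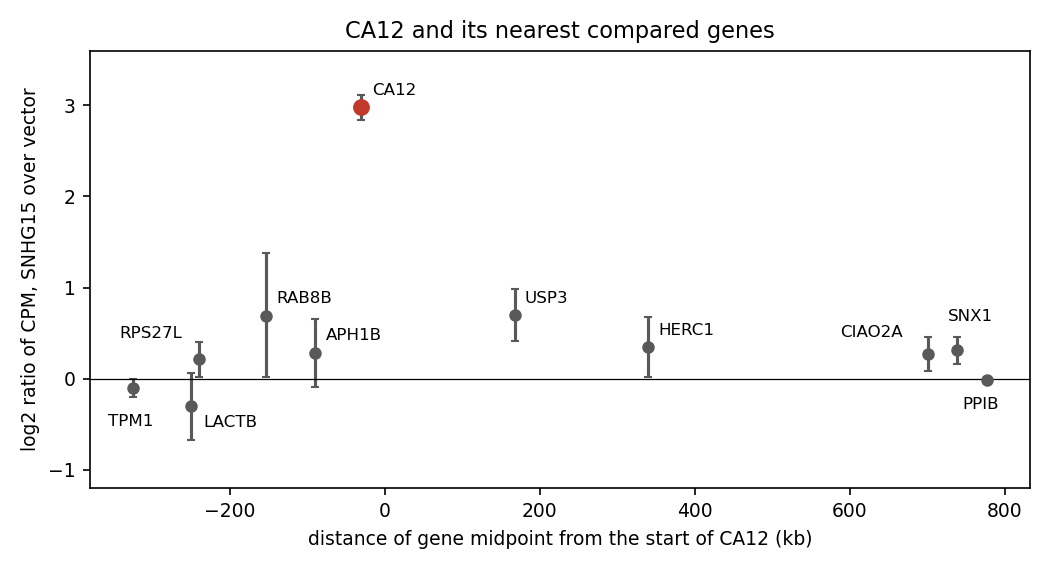
Log2 of the CPM quotient, SNHG15 over vector library, for CA12 (red) and the 5 nearest compared genes on each side (grey), against the distance of the gene midpoint from the start of CA12 in kb. Bars are exact 95% intervals that cover counting error only, and the neighbours have ratios from 0.809 to 1.62 where CA12 has 7.89.

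Genes most like CA12 were sought among those within 2-fold of its mean CPM, by the closeness of their log2 ratio over the 2 libraries. EMILIN2, a glycoprotein of elastic fibres, had a ratio of 7.68, and THBS2, a thrombospondin of the matrix, a ratio of 9.14. The next were FAM53C at 4.34, the surface glycoprotein CD24 at 4.03 and the cadherin CELSR1 at 3.45. Likeness over 2 libraries says only that the ratios were close.

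Since CA9 and CA12 are known to respond to hypoxia, 25 hypoxia-inducible genes and their regulators were counted too. Of these, 5 (20%) were higher, 2 (8%) were lower and 18 were neither, beside 13.3% and 12.2% of all genes compared. The median log2 ratio was 0.22, against 0.02 over all genes compared. The higher ones were the glucose transporters SLC2A3, at 187 counts against 6, and SLC2A1 (ratio 2.59, 2.41 to 2.80), the factor HIF1A itself (1.75, 1.51 to 2.03), the prolyl hydroxylase P4HA1 (1.52, 1.34 to 1.72) and CA9. By library totals 8 were higher and 1 was lower, against 2380 and 1151 over all genes. The log2 ratios of the 5 genes higher with TMM were 4.75 (SLC2A3), 1.37 (SLC2A1), 0.80 (HIF1A), 0.60 (P4HA1) and 0.71 (CA9). With the GC trend removed they were 4.64, 1.53, 0.59, 0.40 and 0.92, so that P4HA1 fell under 1.5-fold. The peptide hormone gene ADM was 2.12-fold lower (1.91 to 2.36) and the hexokinase HK2 1.62-fold lower (1.52 to 1.72), and ENO1, the most abundant of the set, had a ratio of 1.11 (1.10 to 1.12).

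Of 14 oestrogen receptor and luminal genes, 4 were compared, of which 0 were higher, 1 (25%) was lower and 3 were neither. Of all genes compared 13.3% were higher and 12.2% were lower. The median log2 ratio of the 4 was −0.47. The luminal factor GATA3 was at 65.2 CPM with SNHG15 overexpressed and 58.6 CPM with the vector, a ratio of 1.11 (1.02 to 1.21). The other 3 were on the lower side, with KRT18 at 12117 counts against 23962 (ratio 0.585, 0.573 to 0.598), XBP1 at 0.723 (0.671 to 0.778) and KRT8 at 0.718 (0.638 to 0.809), of which only KRT18 met the rule. KRT19, under 1 CPM on average, had 0 counts against 23. Also under 1 CPM, but on the higher side, were GREB1, FOXA1 and MYB. GREB1 had 17 counts against 3 (ratio 6.56, 1.90 to 34.9), FOXA1 6 against 1 and MYB 11 against 8. With no minimum CPM, 1 gene of the set was higher and 2 were lower. KRT8, at 453 and 730 counts, overlaps the far more abundant KRT18 on the opposite strand, so the ratio of KRT8 is uncertain.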

How the data were processed

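RNA of 1 SNHG15 library and 1 vector library was sequenced. Per the file headers, the authors deposited raw counts per gene, FPKM values and the log2 ratio of these FPKM. Per the submitters' processing notes, reads were placed on hg38. Aligner, counter, strand and annotation release are not given in the sources used here. Separate lists of called genes were left aside.

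Scaling used the TMM method of edgeR 4.0.16 (R 4.3.3) on the whole count table, and CPM came from the scaled totals (median comparisons use log2 ratios with a prior count of 2). Ratios carry exact conditional-binomial (Clopper-Pearson) 95% intervals. Reads are not independent molecules, so intervals cover counting error only. A gene entered the comparison if its CPM averaged 1 or more. GENCODE 29 on GRCh38 gave exon lengths and transcript GC content, with a value for 99.7% of genes compared (72 of the 72 in the pH sets). Log2 ratios and transcript GC content had a Spearman correlation of −0.33 over the genes compared. The GC trend was removed by lowess with a span of 0.5 (statsmodels 0.14.6), a step added after seeing the data, as were the per-kilobase levels. The interval and call functions were tested on simulated counts.

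Members and lists were chosen with earlier results of these data known. Named were the members, the most abundant gene and up to 4 called genes of each list by the interval bound nearest to 1, the 2 nearest neighbours of CA12 on each side, and its 5 most similar genes. CA4, CA5B, CA6, EMB, LDHA, PDK4, GPR4, HIF1A, P4HA1, GATA3, XBP1, KRT8 and KRT19 were named after their values were seen. So were GREB1, FOXA1, MYB, SLC16A6, SLC16A9, SLC16A11 and SLC16A14. A few genes that enter the counts and medians of their sets are not reported here. The settings varied were the scaling (DESeq2 1.42.0 size factors or library totals), thinning of the deeper library, no minimum or 5 CPM, point ratios, intervals past 2-fold, prior counts of 0.5 and 10, and FPKM with pseudocounts of 1 and 0.1.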

Additional observations from a re-analysis of the deposited data

How the results depend on the processing

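CA12 kept its direction under every alternative run, with ratios from 7.66 to 8.55, except for 6.10 by FPKM with a pseudocount of 1, which understates changes of low values. CA9 stayed above 1 and SLC4A7 within its interval. SLC4A2 had ratios of 0.708 with DESeq2 size factors, 0.789 by library totals (0.794 and 0.790 by FPKM with pseudocounts of 1 and 0.1) and 0.898 with the GC trend removed. SLC16A3 had 0.750, 0.774, 0.752 and 0.888 by the last 4 of these. BSG had 0.893 with DESeq2 size factors, 0.997 by library totals, 0.997 and 0.997 by FPKM with pseudocounts of 1 and 0.1, and 1.11 with the GC trend removed. SLC16A1 had 1.63 with the GC trend removed. Requiring 5 CPM left 1023 genes higher in place of 1725 over the whole table, since fewer genes were tested. Whole intervals past 2-fold left 2 higher and 1 lower of the pH genes. Medians changed sign for bicarbonate exchangers by library totals (0.0051), V-ATPase subunits at 5 CPM (−0.056), and proton channels by library totals (0.080) and with the GC trend removed (0.047). The cause was not tested. No paired analysis was possible because each group held 1 library. Depth limits CA9, EMB and GPR4, whose intervals are wide.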

Other observations

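The FPKM of the deposited table do not divide by the usual exonic length. Of 7446 genes with at least 200 counts in the SNHG15 library and a GENCODE 29 model, 86.8% had an FPKM whose implied length lay within 1% of the summed length of all distinct exons of all transcripts. With this length, stretches shared by overlapping exons are counted once per exon. The merged exon length matched for 7.74% of genes and the longest transcript for 7.41%. For the median gene the implied length was 1.60 times the merged exon length.

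The factor differed among the pH regulators. For CA12 the implied length was 11676 bases against 7313 bases of merged exons, a factor of 1.60. For CA9 it was 1.61, for SLC4A7 1.71, for SLC16A1 1.73, for SLC4A2 1.85, for SLC16A3 1.94 and for BSG 2.57. For SLC4A2 and BSG the implied length also exceeded the summed exons of GENCODE 29 (14073 against 13639 bases, and 9745 against 8979). Ratios of 1 gene between the libraries do not depend on the length, but levels of different genes do. LDHB exceeded LDHA by deposited FPKM in the SNHG15 library (94.6 against 69.2), whereas by CPM per kilobase of merged exons LDHA exceeded LDHB (171 against 133).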
